A study of Mus musculus with 2 samples.

Results

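The genes described here encode the proteins of the cytosolic ribosome, and they were examined for open chromatin in the hippocampus of adult male mice. Members were the autosomal protein-coding genes of GENCODE M21 whose symbol was Rpl or Rps with a number and at most 1 further letter, Rplp0 to Rplp2, or Rpsa. The rule gave 76 genes of the 20722 autosomal protein-coding genes with an annotated start, 46 with large-subunit symbols (the P proteins included) and 30 with small-subunit symbols. Chromatin was assayed by DNase-seq, in which DNase I cuts DNA not wrapped in nucleosomes and the ends so made are sequenced. The series held 1 group of 2 biological replicates from male B6CASTF1/J mice, a first-generation cross of C57BL/6J and CAST/EiJ, aged 2 months. The labels gave the tissue as a layer of hippocampus without naming the layer, and both replicates carried the same donor entry and separate biosample entries. Whether they came from separate animals was not stated, so their spread may be partly technical, and no treatment or second tissue was present to test against.

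The eukaryotic ribosome pairs a small subunit, which reads the messenger RNA, with a large subunit, which joins amino acids. Each of its proteins is needed in about equal amounts in nearly every cell, and their genes are known as short, strongly transcribed housekeeping genes. Their mammalian promoters are known to start transcription at a C inside a run of pyrimidines, and the messenger RNAs then begin with a pyrimidine tract through which translation is regulated by growth signals.

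Replicate 1 held 132685 peaks and replicate 2 held 59880, with 255536 and 111355 footprints (short protected stretches inside open chromatin). The height of a peak was the authors' signal value, and its scaling was stated neither in the labels nor in the files. Heights were whole multiples of a step, 0.00535 in replicate 1 and 0.0108 in replicate 2 (all heights below 500 steps, to within 0.000931 steps). The median peak was 0.663 and 0.936 high. The heights of the replicates were therefore kept apart, and percentiles were taken within each replicate. Promoters of 7 of 9 excitatory neuron markers were open in both replicates, as were 3 of 6 astrocyte and 4 of 6 oligodendrocyte markers, against 58.2% of all autosomal genes. None of 4 markers each of microglia, endothelium, liver and skeletal muscle was open in both. Of the markers not open, Prox1, Slc17a7, Aldoc, Aqp4, Mog, Csf1r, Cx3cr1 and Apoa1 had a peak in replicate 1 only. Flt1 had peaks in both that did not overlap near its starts. All values are for the tissue as a whole, in which the number of cells with an open promoter and its accessibility per cell cannot be told apart.

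Promoters of ribosomal protein genes were open in almost every case. A promoter was called open where peaks of both replicates overlapped each other within 500 bp of any annotated start of the gene. By this rule 73 of the 76 members (96.1%) were open, against 58.2% of all 20722 genes. All 30 small-subunit members were open, as were 43 of the 46 large-subunit members. The 3 others, Rpl3l, Rpl10l and Rpl39l, had no peak in either replicate. In 60 of the 73 open members (82.2%) the promoter held 1 shared peak, against 62.9% of all open genes.

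The RefSeq promoters below (GRCm38.p6, from 250 bases before to 50 after the RefSeq start, written 5′ to 3′) show sequence and footprints at single members. They belong to the members with the highest and the lowest open promoter by the mean of their percentiles in both replicates, the member with the most footprints among those with an entry, a member without a peak, and Rplp0. Rplp0 was added after its values were seen, for the footprint over its TATA-like letters. Capitals mark bases that lay inside a footprint in both replicates. Rpl7a lies at chr2:26910557-26910856, plus strand. Rplp0 lies at chr5:115559217-115559516, plus strand. Rps19 lies at chr7:24884342-24884641, plus strand. Rpl6 lies at chr5:121204251-121204550, plus strand. Rpl10l lies at chr12:66284352-66284651, minus strand.
Rpl7a: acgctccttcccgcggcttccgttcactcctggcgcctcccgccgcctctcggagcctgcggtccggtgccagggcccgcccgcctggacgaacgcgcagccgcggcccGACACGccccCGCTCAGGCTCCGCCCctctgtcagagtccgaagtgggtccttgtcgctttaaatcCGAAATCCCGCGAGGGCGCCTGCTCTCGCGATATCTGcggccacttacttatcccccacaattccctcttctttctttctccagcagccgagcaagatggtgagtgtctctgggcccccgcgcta
Rplp0: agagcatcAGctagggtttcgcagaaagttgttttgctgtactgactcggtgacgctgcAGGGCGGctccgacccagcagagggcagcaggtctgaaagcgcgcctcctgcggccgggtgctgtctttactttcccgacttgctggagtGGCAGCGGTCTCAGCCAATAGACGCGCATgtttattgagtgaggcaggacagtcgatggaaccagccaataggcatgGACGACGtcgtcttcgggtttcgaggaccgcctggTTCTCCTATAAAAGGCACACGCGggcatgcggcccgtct
Rps19: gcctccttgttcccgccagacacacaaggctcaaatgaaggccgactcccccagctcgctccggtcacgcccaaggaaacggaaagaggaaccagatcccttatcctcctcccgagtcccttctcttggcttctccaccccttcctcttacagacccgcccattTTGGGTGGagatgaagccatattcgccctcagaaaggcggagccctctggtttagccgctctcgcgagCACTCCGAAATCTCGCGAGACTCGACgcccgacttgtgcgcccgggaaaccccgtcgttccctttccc
Rpl6: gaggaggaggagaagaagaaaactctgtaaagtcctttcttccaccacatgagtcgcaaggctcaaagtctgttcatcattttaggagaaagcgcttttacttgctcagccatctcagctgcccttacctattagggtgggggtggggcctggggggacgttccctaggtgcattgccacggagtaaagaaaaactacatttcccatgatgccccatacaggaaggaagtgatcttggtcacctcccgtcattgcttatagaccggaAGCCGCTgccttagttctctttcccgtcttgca
Rpl10l: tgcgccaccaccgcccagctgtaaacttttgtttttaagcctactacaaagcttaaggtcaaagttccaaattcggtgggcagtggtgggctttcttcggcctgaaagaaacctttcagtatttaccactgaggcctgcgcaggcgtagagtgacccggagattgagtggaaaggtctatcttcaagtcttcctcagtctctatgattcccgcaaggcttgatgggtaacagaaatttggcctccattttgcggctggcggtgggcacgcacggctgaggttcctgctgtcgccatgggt
In Rpl7a 59 of the 300 bases lay in footprints of both replicates, including a whole TCTCGCG at position -52 from the RefSeq start and a whole GGGCGG on the other strand at -121. In Rplp0 68 bases did, over a CCAAT at -87 and TATAAA at 17. In Rps19 34 bases did, over 2 overlapping TCTCGCG matches on opposite strands at -8 and -5, while a further match at -27 lay outside. In Rpl6 only 7 bases did, of which 2 belong to the match of CCGGAAG that begins at position 12. Rpl10l had no footprint in this window in either replicate. The counts of elements below use another window, at the GENCODE primary start (that of the transcript ranked first). The RefSeq start lay 43 bp after it in Rpl7a, 221 bp after it in Rps19 and 20 bp after it in Rpl6. In the window of the primary start Rps19 held 1 TCTCGCG match, at -221, under no footprint of either replicate. Entries were present for 56 members. Those without one included Rpl17, Rpl21, Rpl23a, Rpl29, Rpl3, Rpl30, Rpl32, Rpl36, Rpl7, Rpl8, Rplp1, Rps14, Rps20, Rps27a and Rps29.

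Open members also had higher promoter peaks than most open genes. Their median height was 6.32 in replicate 1 and 3.38 in replicate 2, against 4.18 and 2.53 over all 12064 open genes. Heights of members ran between 2.33 and 12.2 in replicate 1 and between 1.84 and 6.02 in replicate 2. The median member stood at percentile 76.2 of all open genes in replicate 1 and 74.3 in replicate 2. Of the 73 open members 57 (78.1%) were above the median of all open genes in both replicates, against 43.1% of all open genes. Above percentile 90 in both replicates were 10 members (13.7%), against 6.12% of all open genes. The large-subunit members had medians of 6.35 and 3.38, and the small-subunit members 5.95 and 3.45, so the subunits differed by less than 0.5 units in each replicate.

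**Figure D1:**
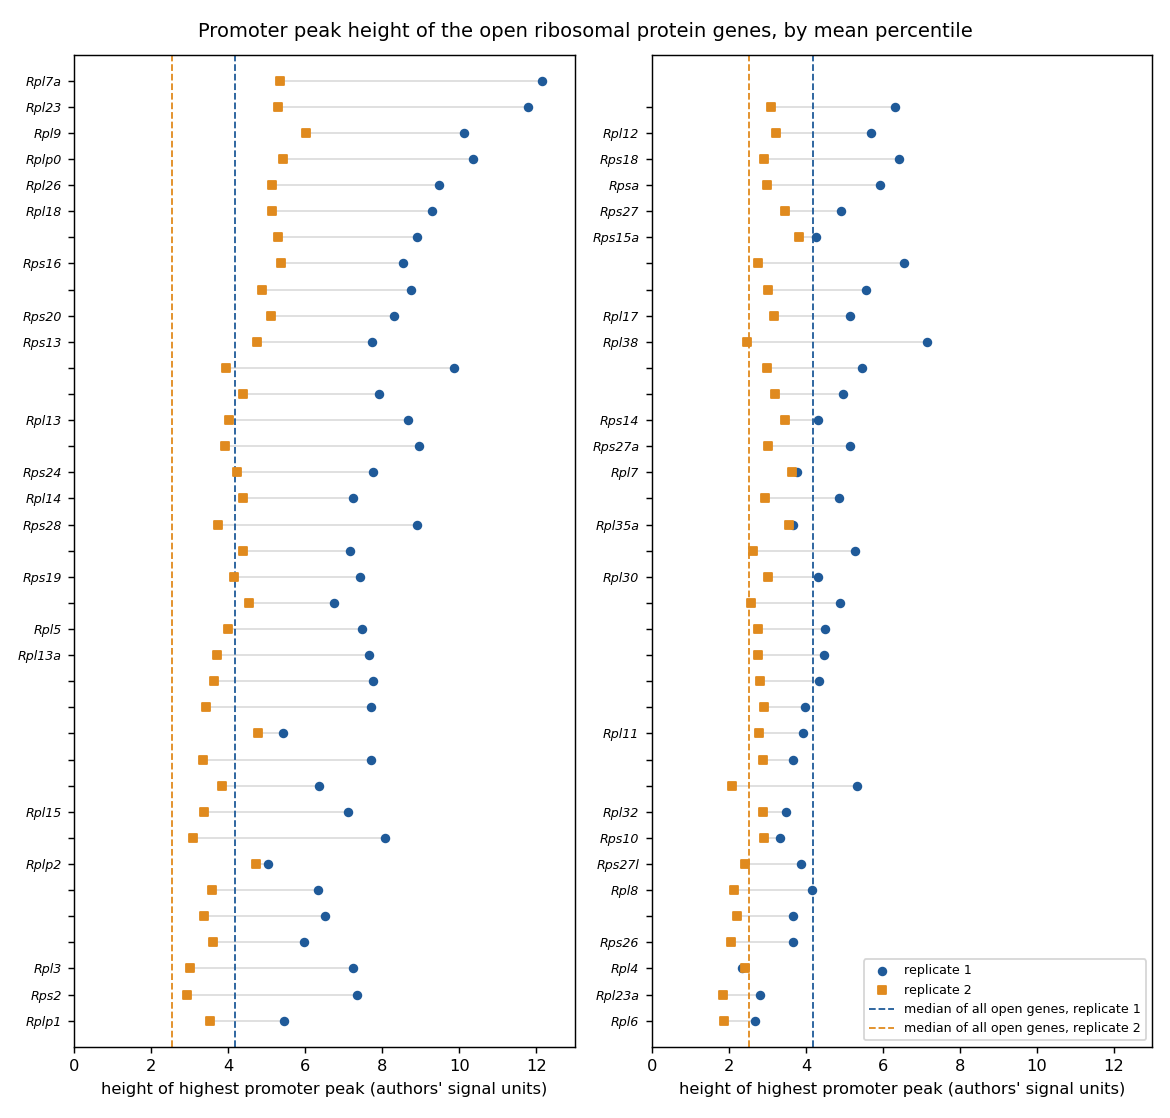
Height of the highest promoter peak (authors' signal units) of each of the 73 open members, ordered by the mean of the percentiles in both replicates. Genes described in the text carry their symbol. Circles are replicate 1, squares replicate 2, and dashed lines the medians of all open genes (4.18 and 2.53). Most members lie to the right of the line of their replicate, and 57 do so in both.

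Among the large-subunit genes the highest promoters were those of Rpl7a, Rpl23, Rpl9, the stalk gene Rplp0, Rpl26 and Rpl18, which by the mean of the percentiles were also the highest of all members. Rpl7a had a height of 12.2 in replicate 1 and 5.36 in replicate 2. Rpl23, whose product lies on the face of the large subunit that meets the small one, had 11.8 and 5.29. Rpl9 had 10.1 and 6.02. These 3 stood at percentile 97.4 or above in both replicates. Rpl26, whose product lies near the exit of the peptide tunnel, had 9.48 and 5.14, and Rpl18 had 9.29 and 5.14. The lowest open promoters were also mostly those of large-subunit genes. Rpl6 had 2.66 and 1.88, and Rpl23a, whose product docks the signal recognition particle at the tunnel exit, had 2.81 and 1.84. Rpl4, whose product lines the tunnel, had 2.33 and 2.42. Rpl8, whose product lies close to the catalytic centre, had 4.15 and 2.12. All 4 were below the median of all open genes in both replicates.

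The genes for the stalk, the flexible arm of P proteins that recruits elongation factors, were all open but were not alike. Rplp0, the base of the stalk, had heights of 10.3 and 5.41. Rplp1 had 5.45 and 3.52, and Rplp2 had 5.04 and 4.73. Rplp0 stood at percentiles 97.8 and 98.2, the closest match between replicates of all members. Rplp2 stood at 61.1 in replicate 1 and 95.04 in replicate 2, among the 5 members that moved most. Rpl5 and Rpl11, whose products join the smallest ribosomal RNA and restrain Mdm2 when ribosome assembly fails, also stood apart from each other. Rpl5 had 7.47 and 3.99, and Rpl11 had 3.91 and 2.78, so that Rpl5 was higher in both replicates.

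Small-subunit promoters filled a narrower range, between 3.34 and 9.88 in replicate 1 and between 2.05 and 5.38 in replicate 2. Rps16, a long-used model promoter in mouse, was among the highest with 8.54 and 5.38. Rps19, the gene most often mutated in human Diamond-Blackfan anaemia, had 7.41 and 4.14. Rps14, whose loss is tied to a form of human myelodysplastic anaemia, had 4.32 and 3.45. The lowest by mean percentile was Rps26, whose product lines the exit path of the messenger RNA, with 3.66 and 2.05. Rpsa, which encodes the protein also known as the laminin receptor, had 5.93 and 2.99. Rps27a, which encodes a ribosomal protein fused to ubiquitin, had 5.14 and 3.001. Both lay above the median of all open genes in both replicates.

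Paralogs separated into open and closed promoters. Rpl3l, the copy of Rpl3 used in striated muscle, Rpl10l, the testis copy of the X-linked Rpl10, and Rpl39l, the male germ cell copy of the X-linked Rpl39, had no peak and no footprint within 500 bp of any start in either replicate, and no interval under the FDR limit of 0.05 within 500 bp of the primary start. Rpl3 had heights of 7.25 and 3.01, Rpl10 had 3.43 and 1.88, and Rpl39 had 2.29 and 1.58. Rps2 (7.35 and 2.94) and the closed Rpl3l lie 5.89 kb apart on chromosome 17 and the same strand. Rps27l differed from these copies, with an open promoter of 3.87 and 2.42 beside 4.92 and 3.45 at Rps27. Rpl7 (3.78 and 3.63) and Rpl7a (12.2 and 5.36) share a root symbol only, as do Rpl13 (8.67 and 4.02) and Rpl13a (7.66 and 3.71). Rpl7a was the higher of its pair in both replicates, and so was Rpl13.

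Of 257 autosomal pseudogenes named after ribosomal protein genes, 2 had a shared peak within 500 bp of their annotated 5′ end, or 0.778%. Rpl29-ps2 had 3.42 and 1.86, and its 5′ end lies 160 bp from the start of a protein-coding gene. Rps19-ps10 had 1.54 and 0.549, below every open member in both replicates. A peak in replicate 1 was found at 11 pseudogenes and in replicate 2 at 4. With a window of 2000 bp 15 counted as open. How reads that align to several near-identical copies were handled was not stated, so values at pseudogenes, and at members with close copies, are uncertain.

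The heights of the replicates ordered the members less tightly than they ordered all genes. Across the 73 open members Spearman's rho between the replicates was 0.747 and Pearson's r of log2 heights 0.75, against 0.889 and 0.90 across all 12064 open genes, whose heights span a wider range. These are correlations across genes, which are not replicates. On a log2 scale replicate 2 minus replicate 1 had a median of -0.82 for members and -0.71 for all open genes, on scales that are not known to be the same. Of the 73 members 72 (98.6%) were lower in replicate 2, against 87.6% of all open genes, and Rpl4 was the exception. Percentile moved most at Rpl7 (80.1 in replicate 2, 44.4 in replicate 1), Rpl35a (78.4 and 42.8), Rplp2, and Rps15a (83.7 and 51.2), which were higher in replicate 2, and at Rpl38 (48.2 and 83.6), which was lower. It moved by 1.15 points or less at Rplp0, Rpl5, Rpl12, Rpl6 and Rpl23.

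**Figure D2:**
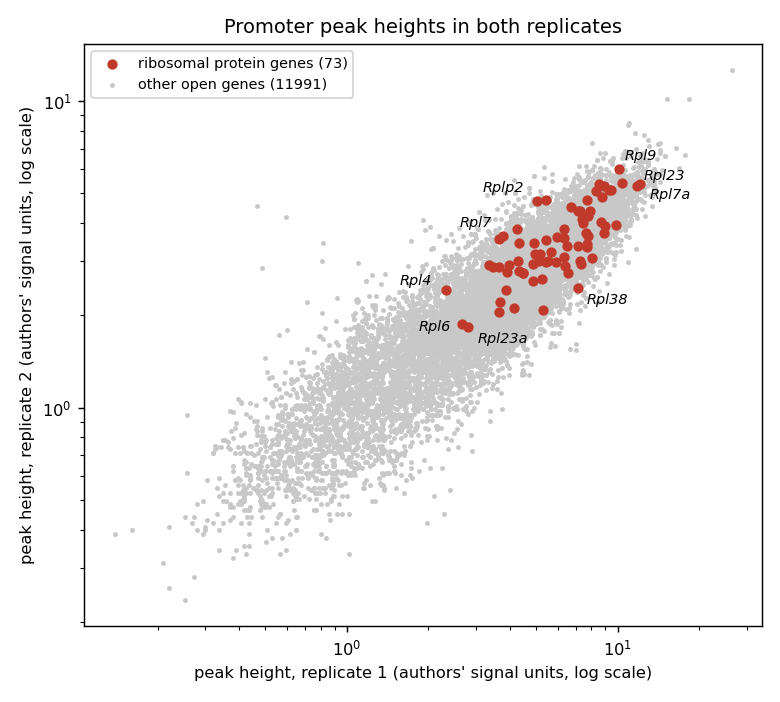
Promoter peak height in replicate 1 (x axis) and replicate 2 (y axis), both on log scales in the authors' signal units. Red points are the 73 open members and grey points the 11991 other open genes. Most members lie in the upper part of the cloud, up to Rpl7a and Rpl9, while Rpl4 and Rpl6 lie in its lower part.

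The shape of open chromatin at members resembled that of other promoters in width but reached further past the start in its footprints. The highest peak of a member had a median width of 220 bp in replicate 1 and 320 bp in replicate 2, against 220 and 300 bp for all open genes. Its centre lay at a median of 15.5 bp before the primary start in replicate 1 and 36.5 bp after it in replicate 2, against 33.5 and 6.5 bp before it for all open genes. The primary start is that of the transcript GENCODE ranks first. Within 500 bp of that start the deposited intervals under the FDR limit covered a median of 750 and 725 bp in members, against 723 and 703 bp in all open genes. Over the 200 bp after the start footprints covered 12.2% of the bases of members in replicate 1 and 9.25% in replicate 2, against 7.55% and 5.97% in all open genes. Over the 200 bp before it they covered 18.9% and 11.2%, against 15.4% and 9.19%.

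**Figure D3:**
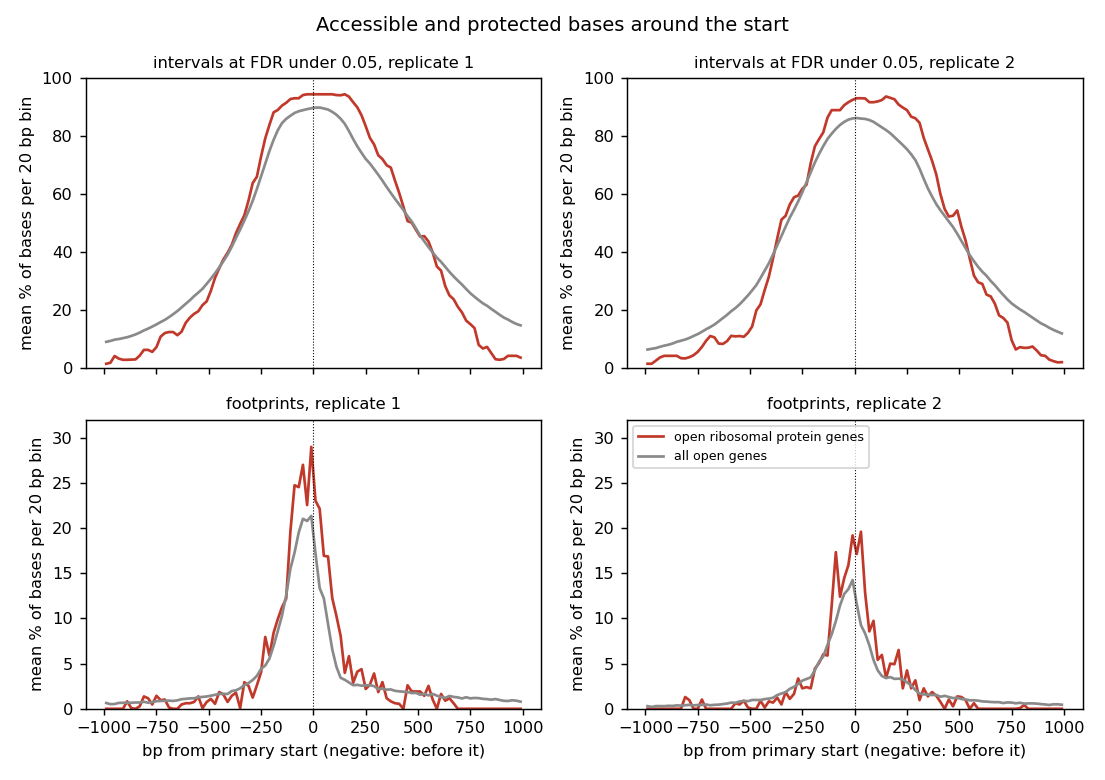
Mean share of bases in bins of 20 bp (y axis) that lay in intervals under the FDR limit (upper panels) or in footprints (lower panels), by distance from the primary start (x axis, bp). Red is the 73 open members and grey all 12064 open genes; footprint cover of members peaks at 29.0% in replicate 1 and 19.6% in replicate 2, against 21.3% and 14.2%.

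An open member had a median of 6 footprints within 500 bp of its starts in replicate 1 and 5 in replicate 2, against 5 and 4 for all open genes. Rpl7 had the most, 11 and 10, over 3 shared peaks. Rps19 had 11 and 9, Rpl18 had 10 and 7, and Rps18 had 8 and 8. Rpl3, Rpl13a and Rplp0 tied for the fifth place with 15 over both replicates. Rps2 had the fewest, 2 in each replicate. Of these, Rpl18 and Rplp0 were also among the 6 highest promoters. Spearman's rho between height and footprints across members was -0.0228 in replicate 1 and 0.182 in replicate 2, against 0.386 and 0.42 across all open genes, again as a description across genes. Footprint counts of the same member in the 2 replicates had a rho of 0.255, against 0.523 for all open genes.

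Promoter sequence set members apart from other open promoters in base composition and in several short elements. In the window from 250 bp before to 50 bp after the primary start the median GC content was 55.7% in open members, against 61.3% in all open genes, and both had a median of 21 CpG. Height went with GC content among members (Spearman's rho 0.519 and 0.366 in the 2 replicates) more than among all open genes (0.0947 and 0.126). The start base was C in 26 of the 73 open members (35.6%), against 17.3% of all open genes. A C followed by 4 bases of C or T stood at the start of 8 (11.0%), against 2.24%. At the annotated start nearest the highest peak of replicate 1, C stood in 24 (32.9%), against 16.7%. There the C with 4 bases of C or T stood in 10 (13.7%), against 2.19%. All are annotated starts. Where transcription begins was not measured, so the share of members that start in such a run cannot be read from these counts.

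Exact matches were counted on both strands for 9 elements (matches of some, such as TCTCGCG, can overlap on opposite strands). By the ratio of the shares TCTCGCG stood furthest from the other open promoters, with matches in 15 open members (20.5%) against 5.54% of all open genes and 3.48% of all promoters. Its 22 matches include pairs that overlap on opposite strands. Of these 22, 15 (68.2%) lay under a footprint in replicate 1 and 9 (40.9%) in replicate 2, against 45.5% and 28.7% of the matches in all open genes. A match counted as under a footprint if any of its bases lay in one, here and for the elements below. Footprints covered a median of 54 and 31 bases of the window in open members, against 38 and 22 in all open genes. Rpl26 held 3 matches, at -43, -40 and -33 from the primary start, all under footprints in both replicates. Rps28, Rpl7a and Rps13 also had every match under a footprint in both. Members with the element had median heights of 7.41 and 3.92, against 5.50 and 3.21 for the 58 without it, and among all open genes the medians were 5.44 and 3.03 with it and 4.09 and 2.48 without it. This was shared by other elements: members with a match were higher in both replicates for 7 of the 9. Among all open genes this held for 8 of the 9, all but TATAAA. Members with CCGGAAG were lower in both replicates (5.95 and 2.96 with it, 6.33 and 3.45 without). All open genes with CCGGAAG were higher (5.04 and 2.84 with it, 3.93 and 2.44 without). Members were mixed for the YY1 element.

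CCGGAAG, the core bound by ETS factors such as GABP, was found in 22 open members (30.1%), against 17.6% of all open genes and 11.5% of all promoters. In Rpl30 it was not found in this window, and in Rpl32 it stood at -73, outside the footprints of both replicates. AAGATGG, the core of YY1, was found in 9 (12.3%), against 7.07% of all open genes and 6.26% of all promoters. GCATGCG (NRF1) was found in 8 (11.0%), against 6.72% and 4.46%. TGACGT (CRE) was found in 13 (17.8%), against 12.1% and 8.79%, and CACGTG (E-box) in 10 (13.7%), against 10.1% and 7.82%. GGGCGG, bound by Sp and KLF factors, was rarer in members than in other open promoters. It was found in 34 (46.6%), against 65.2% of all open genes and 46.2% of all promoters, and CCAAT (NF-Y), also rarer, in 23 (31.5%), against 38.1% of each. With a window of 100 bp before to 50 bp after the start the NRF1 and E-box elements were each found in only 4 open members. The share of all open genes in that window is not given. Whether these elements are more frequent in members there is therefore not known. Of the CCGGAAG matches in members 38.5% lay under a footprint in each replicate, against 37.7% in replicate 1 and 26.6% in replicate 2 for all open genes. Of the 10 NRF1 matches in members 5 lay under a footprint in replicate 1 and 6 in replicate 2, below the 73.2% and 64.1% of all open genes.

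TATAAA was found in 7 open members (9.59%), Rpl3, Rpl30, Rplp0, Rps2, Rps20 and Rps28 among them, against 6.61% of all open genes and 12.6% of all promoters. Of its 8 matches in members 5 (62.5%) lay under a footprint in replicate 1 and 6 (75.0%) in replicate 2, against 14.3% and 10.02% of the matches in all open genes. Matches stood at 17 in Rplp0, 23 in Rpl3 and 35 in Rps20, after the annotated start, and at -33 in Rps28, before it. The match in Rpl30, at -51, lay under no footprint in either replicate. The letters thus lie on either side of the annotated start. In 4 of the 73 open members (5.48%) the primary start lay over 500 bp from the centre of the highest peak in replicate 1, against 11.9% of all open genes, so the window missed their peak. They were Rps14, Rpl18, Rpl17 and Rps10, identified after their values were seen. With the window at the annotated start nearest the peak, CCGGAAG was found in 28 (38.4%) against 18.6% of all open genes, and TCTCGCG in 16 (21.9%) against 6.01%.

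**Figure D4:**
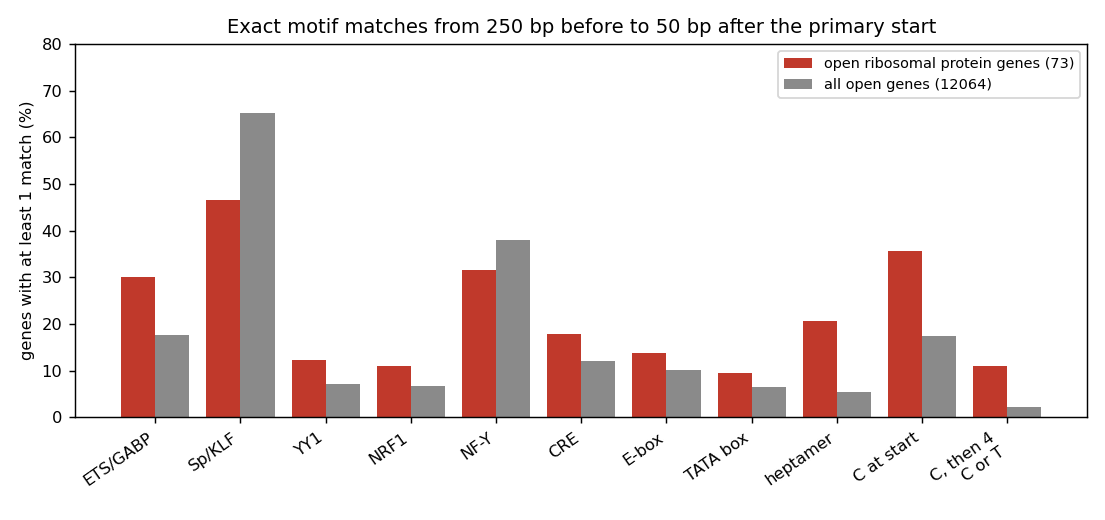
Share of genes (y axis, %) with at least 1 exact match of each element on either strand, and of annotated primary starts at C or at C followed by 4 bases of C or T, for the 73 open members (red) and all 12064 open genes (grey). The bar named heptamer is TCTCGCG, with 20.5% of members against 5.54% of all open genes, and Sp/KLF is GGGCGG, with 46.6% against 65.2%.

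Starts of other genes lay within 1000 bp of 16 of the 73 open members (21.9%), close to the 19.9% of all open genes. The highest of these were Rpl7a, 87 bp from the start of the Mediator subunit gene Med22, Rpl9, 53 bp from Lias, Rpl18, 69 bp from Sphk2, Rps28, 10 bp from Ndufa7, and Rpl15, 69 bp from Nkiras1. All 5 pairs run in opposite directions, and their peaks cannot be assigned to 1 of the 2 genes. Median heights of members were 6.05 and 3.30 with such a neighbour and 6.32 and 3.41 without. For all open genes they were 5.34 and 3.08 with one and 3.83 and 2.36 without. Genes of small nucleolar RNAs, which guide the modification of ribosomal RNA, lay inside 27 members. The medians were 7.25 and 3.71 for these and 6.15 and 3.38 for the 46 open members without one. For all genes no such share or medians are given here, so neither can be called particular to members.

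Open sites away from promoters were found at a smaller share of members than of all genes, and at a somewhat larger share than of all short genes, most of which were not open. A distal site was a shared peak over 2500 bp from every protein-coding start, inside the gene or within 10 kb of it. Of the 76 members 22 (28.9%) had at least 1, against 41.8% of all genes. Members are short, with a median length of 3.40 kb against 17.6 kb. Among genes of at most 10 kb the shares were 21 of 72 members (29.2%), against 22.5% of all such genes. Promoters were open in 95.8% of these members but in only 36.9% of all such genes, so the 2 sets also differ in this. The shares depended on the limits set, with 60 members (78.9%) against 71.9% of all genes for a flank of 50 kb, and 10 (13.2%) against 25.4% in the shorter peak lists. In replicate 1 alone, with its many more peaks, they were 45 members (59.2%) against 68.1%. The 27 sites at members had median heights of 2.88 and 1.23, against 1.28 and 0.871 over 27632 autosomal distal sites. Rps14 had 3, of which 1 lay in its own intron, and Rpl14, Rplp0 and Rps10 had 2 each. The only other site inside a member was in an intron of Rpl26, and 20 of the 27 lay outside protein-coding genes. The highest in replicate 1, of 5.15 and 2.41, lay 9.98 kb past the primary start of Rps24, beyond its 3′ end, and was named after its value was seen.

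Most genes of the other lists tied to protein synthesis were open too. For mitochondrial ribosomal proteins, which build the separate ribosome of mitochondria, 77 of 78 were open, with medians of 5.03 and 2.85. Initiation factors, taken as Eif symbols, had 47 of 52 open (5.76 and 3.42). Elongation factors, taken as Eef1 and Eef2 symbols, had 13 of 13 (5.78 and 2.52). Both lists also hold genes for proteins that act on the factors, such as Eif2ak1, Eif4ebp1, Eef2k and Eef2kmt. Ribosome biogenesis factors had 21 of 21 (4.99 and 2.80). Proteasome subunits, set beside them as another large housekeeping complex, had 36 of 38 open (4.92 and 2.96). The members' medians of 6.32 and 3.38 were above those of each list as drawn up, except the initiation factors in replicate 2. Medians of the factors alone are not given, so this order may not hold for them. Eef1b2 (7.49 and 4.06), Eef1g (8.20 and 4.50) and Eef2 (9.47 and 4.30) lay above the members' medians in both replicates. Eef1a1 and Eef1a2 lay below them in both, and Eef1d (7.28 and 2.52) in replicate 2 only. Single genes of the lists exceeded the members, among them the biogenesis factor gene Nop56 with 12.4 and 6.78, named after its value was seen.

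A list of 10 further ribosomal protein genes that the symbol rule left out was set beside the members, and all 10 were open. They were picked by name, and the rule may have left out others. Fau (7.88 and 5.28), which encodes a fusion to a relative of ubiquitin, lay above the members' medians in both replicates, as did Rpl36al (7.70 and 4.40). Rpl22l1 had 8.55 and 3.19, Rpl7l1 had 4.29 and 2.64, and Rack1, the scaffold on the head of the small subunit, had 3.63 and 3.06. The 4 X-linked genes were lower. Rpl10 had 3.43 and 1.88, Rpl36a had 2.76 and 1.75, Rps4x had 2.34 and 1.59, and Rpl39 had 2.29 and 1.58. Male cells carry 1 X chromosome, and the 416 open X-linked protein-coding genes of 948 had medians of 1.85 and 1.23, below the 2.55 and 1.67 of these 4. Whether the number of X chromosomes bears on these heights was not tested.

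**Figure D5:**
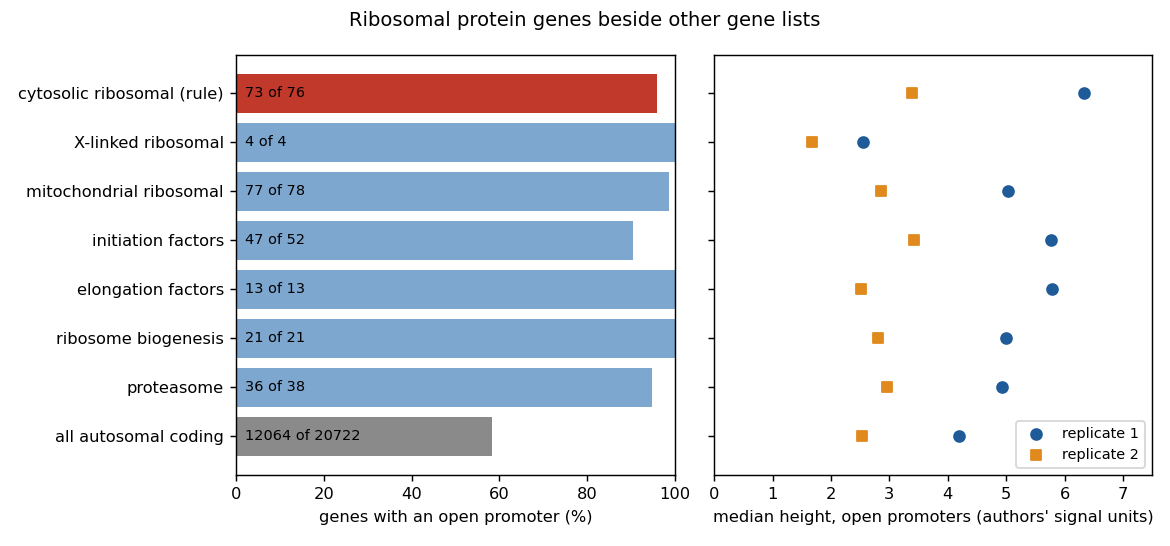
Share of genes with an open promoter (left, %, with counts) and median promoter height of the open ones (right, authors' signal units; circles replicate 1, squares replicate 2) for the members, 6 other lists and all autosomal protein-coding genes. The members' medians of 6.32 and 3.38 lie right of the 4.18 and 2.53 of all genes, and the X-linked ribosomal protein genes lie left of both with 2.55 and 1.67. The initiation and elongation factor lists were taken by symbol and hold some genes for proteins that act on the factors.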

How the data were processed

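Processed DNase-seq files of 2 samples on mm10 were used as deposited. Peaks and footprints were called by the authors for each sample separately, per the file headers and the deposited file listing. For the aligner, callers, thresholds and read depth nothing was stated (not given in the sources used here). Peak height is the deposited signal value of each peak. The deposited interval file gives a false discovery rate, read as a q-value, and lists only intervals under 0.05. The footprint column held the other deposited number, a constant of 0.01, so footprints were used by position only. Reads of both parental strains were placed on 1 reference, so heights pool the alleles, and how strain differences affect them was not tested.

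The longer peak list of each sample was the main one. Shared peaks were intersections of at least 1 bp. Annotation was GENCODE M21 on GRCm38, the same assembly as mm10. Of 20807 autosomal protein-coding genes, 85 without a protein-coding transcript start were left out. Height per gene was the highest peak within 500 bp of any start. Percentiles are mid-ranks among the 12064 open genes of a replicate. Motifs were exact matches on both strands in GRCm38 around the primary start (principal by APPRIS, then longest). The promoter entries of RefSeq were checked against the genome, and the first 500 were equal to it.

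With 1 group there was nothing to test, so members are described by counts and medians beside all genes. Members and lists were chosen with earlier results of these data known. The genes named were the 6 highest and 6 lowest open members, those not open, stalk and paralog genes, the extremes of footprints, distal sites and replicate difference, members with neighbouring starts, and a short list of well-studied genes. A few of the genes so chosen are left unreported. Alternatives were the shorter list, other overlaps, windows, starts and flanks, a shorter motif window, each replicate alone, and peaks above the median height. Overlap counting was tested on simulated data. Python 3.11.15 was used with pandas 2.3.3 and numpy 2.4.6.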

Additional observations from a re-analysis of the deposited data

How the results depend on the processing

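The number of open members was 73 (96.1%) in the shorter peak lists, against 52.3% of all genes. It was also 73 with a window of 2000 bp, against 61.3%, and among peaks above the median height, against 53.1%. In either replicate alone it was 73 as well, for which no share of all genes is given. With a window of 200 bp it was 72 (94.7%), against 55.7%. It was 57 (75.0%) with 50% reciprocal overlap, against 44.7% of all genes, and 70 (92.1%) with 1 start per gene, against 55.0%. In the shorter lists the median percentile of open members came to 73.5 (replicate 1) and 71.5 (replicate 2). Median footprints were 5 and 4 with a window of 200 bp and also with footprints inside peaks only, and 5 in replicate 1 with 1 start per gene. Members with a distal site numbered 10 in the shorter lists (13.2%, against 25.4% of all genes) and 60 with a flank of 50 kb (78.9%, against 71.9%). They numbered 45 in replicate 1 alone (59.2%, against 68.1%) and 22 in replicate 2 alone (28.9%, against 44.4%). The share of members with a distal site was thus above that of all genes with the wider flank and below it with the narrower one. Open pseudogenes numbered 1 in the shorter lists and 1 among peaks above the median height, 15 with a window of 2000 bp, and between 4 and 11 in 1 replicate alone. The cause of these shifts was not tested. The motif window at the start nearest the peak was chosen after seeing the data. The depth of the libraries is unknown, and the fewer peaks of replicate 2 limit what can be shared. No paired analysis was possible because the series holds 1 group.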
